A study of Homo sapiens with 4 samples.

Results

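The loci described here belong to 46 homeobox and paired-box genes outside the HOX clusters, the PAX, LIM homeobox, sine oculis (SIX2, SIX3 and relatives), DLX, OTX, EMX, EN, GBX, NKX, POU, BARX and CDX regulators of the nervous system and of other organs. Their accessible regions were taken from a table of 60875 ATAC-seq peaks, regions of open chromatin into which the transposase Tn5 inserted sequencing adapters. A peak was assigned to a gene when the authors' deposited table labels it with that gene's symbol, or when the gene had the nearest protein-coding gene body in RefSeq (GRCh38), at a distance of at most 100 kb and 0 inside. This gave 171 peaks at 45 of the 46 genes. The hindbrain and spinal cord gene NKX6-2 had none.

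The cells were cardiac progenitor cells on day 6 of a cardiac differentiation of WTC11, an induced pluripotent stem cell line of human origin that is in established use, wild type in every sample. Of the 4 libraries, 2 were labelled high and 2 low, for differentiations that went on to a high or a low purity of cardiomyocytes. Each library was made from 50000 to 100000 cells. All 4 share 1 line, and the labels describe the replicates as biological without saying how the cultures were separated. The values are the authors' DESeq2 comparison of the groups: a normalized count averaged over all libraries, a log2 fold change and its standard error (SE), with no value per library. Depth per library is therefore unknown, and p-values cover no more than the spread among these libraries. Peaks marked Up in the authors' deposited table have negative log2 fold changes and peaks marked Down positive ones. The sources used here do not name the numerator, so differences are given as Up side (negative) or Down side (positive) and tied to neither purity group. In bulk samples, fewer cells of a type and less open chromatin per cell cannot be told apart.

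Homeobox genes encode transcription factors that bind DNA through a homeodomain and set regional identity in the embryo. The PAX genes are paired-box genes, and not all of them encode a full homeodomain. For brevity they are counted among the homeobox genes here. OTX, EMX and DLX proteins pattern the forebrain, EN, GBX2, PAX2 and PAX5 the boundary of midbrain and hindbrain, and NKX6, LIM and POU proteins the neurons of the spinal cord. Others act in organs, such as NKX2-3 in gut and spleen, BARX1 in stomach, CDX2 in intestine and SIX2 in kidney. Many are known to be silent in heart cells, and the starts of many lie in DNA rich in CpG that is bound by Polycomb proteins in embryonic cells. An accessible region is not a measure of transcription.

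A start window (250 bases before to 50 after a RefSeq start) was touched by a peak in 18 of the 35 homeobox genes for which one was available. Over all protein-coding genes the share was 65.4%, against 51.4% here. Where a gene has several starts, a peak at any of them counted. At genes such as PAX9, LHX9 and OTX2 the window touched lay inside the gene body. The LHX2 peak reached the window but ended 19 bp before the start. The 18 genes were POU3F2, SIX2, PAX9, DLX1, SIX4, POU3F1, OTX1, POU3F3, NKX2-3, NKX6-1, LHX2, LHX9, POU4F1, OTX2, DLX2, SIX6, GBX2 and DLX6. The start windows of 4 of them are printed to show what the accessible starts look like, together with those of PAX5 and LMX1A, which carry several peaks but none over the start. The sequences are from RefSeq (GRCh38.p14), each written in the direction of the gene. Capitals mark CCAAT or its reverse complement ATTGG, the box bound by the factor NF-Y.
POU3F2, chr6:98834324-98834623, plus strand: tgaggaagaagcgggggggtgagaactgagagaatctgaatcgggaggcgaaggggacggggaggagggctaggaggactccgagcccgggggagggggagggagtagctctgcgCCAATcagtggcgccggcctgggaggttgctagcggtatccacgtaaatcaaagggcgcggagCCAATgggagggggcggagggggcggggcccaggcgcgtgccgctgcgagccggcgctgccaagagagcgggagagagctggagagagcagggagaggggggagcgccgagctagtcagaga
SIX2, chr2:45009403-45009702, minus strand: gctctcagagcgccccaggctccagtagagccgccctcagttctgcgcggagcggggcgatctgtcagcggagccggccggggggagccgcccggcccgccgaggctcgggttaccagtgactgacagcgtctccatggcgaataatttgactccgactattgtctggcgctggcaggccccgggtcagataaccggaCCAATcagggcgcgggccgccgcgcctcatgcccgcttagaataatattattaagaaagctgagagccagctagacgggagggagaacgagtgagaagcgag
PAX9, chr14:36661610-36661909, plus strand: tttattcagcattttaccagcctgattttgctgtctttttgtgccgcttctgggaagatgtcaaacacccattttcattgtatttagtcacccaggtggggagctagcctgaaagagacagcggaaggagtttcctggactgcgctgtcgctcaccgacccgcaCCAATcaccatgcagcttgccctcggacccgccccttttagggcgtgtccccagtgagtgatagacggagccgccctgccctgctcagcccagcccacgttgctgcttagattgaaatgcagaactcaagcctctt
NKX2-3, chr10:99532692-99532991, plus strand: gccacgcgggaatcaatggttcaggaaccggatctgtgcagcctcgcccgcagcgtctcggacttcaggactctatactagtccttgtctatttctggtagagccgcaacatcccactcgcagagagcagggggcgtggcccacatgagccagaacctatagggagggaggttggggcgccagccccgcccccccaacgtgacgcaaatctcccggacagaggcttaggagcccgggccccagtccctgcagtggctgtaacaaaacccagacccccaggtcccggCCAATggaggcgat
PAX5, chr9:37034219-37034518, minus strand: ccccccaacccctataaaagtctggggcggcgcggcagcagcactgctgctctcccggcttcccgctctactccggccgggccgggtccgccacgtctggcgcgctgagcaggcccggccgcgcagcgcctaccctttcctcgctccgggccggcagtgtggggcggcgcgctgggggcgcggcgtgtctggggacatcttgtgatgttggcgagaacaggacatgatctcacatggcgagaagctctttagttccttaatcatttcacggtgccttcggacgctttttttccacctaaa
LMX1A, chr1:165356173-165356472, minus strand: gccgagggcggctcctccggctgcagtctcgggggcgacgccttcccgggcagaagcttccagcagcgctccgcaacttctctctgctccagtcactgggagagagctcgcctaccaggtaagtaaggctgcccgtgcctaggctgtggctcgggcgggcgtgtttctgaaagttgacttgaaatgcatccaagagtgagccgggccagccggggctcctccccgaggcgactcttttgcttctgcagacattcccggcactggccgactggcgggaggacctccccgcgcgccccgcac

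CCAAT or ATTGG stood in 15 of the 18 start windows under a peak (83.3%) and in 6 of the 17 without one (35.3%). Over all protein-coding genes the shares were 38.1% of windows under a peak and 33.5% of the rest. Where a gene has several starts, the window under the peak of highest mean count was used. With the first listed window of each gene the counts were 15 of 18 and 7 of 17. In the windows of 41 further homeobox genes, from lists described below, the box stood in 10 of 17 under a peak and 12 of 24 without one. The motif was chosen after the sequences had been read, so these counts are a description. GC content and CpG number differed little between the homeobox windows with and without a peak. The medians were 64.5% GC and 24 CpG under a peak, and 62.0% GC and 21 CpG without one. Over all protein-coding genes the same medians were 66.3% and 27 under a peak, and 54.3% and 6 without one. TAATTA, a core bound by many homeodomains, stood in 2 of the 35 homeobox windows (EMX2 and NKX2-1) and in 3.21% of all windows; it is its own reverse complement, so a match is on both strands.

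The authors' deposited table puts none of the 18 start peaks below the threshold used here, 0.05 for the adjusted p, and puts 0 below an unadjusted p of 0.05. The background at starts is low: 0.826% of the 10171 peaks over any protein-coding start passed. The highest of the 18 was that of POU3F2, a POU factor of neural progenitors, with a mean count of 232.6 and a log2 fold change of 0.31 ± 0.21 (SE, adjusted p = 0.52) per the authors' deposited table. SIX2, a regulator of nephron progenitors, followed with 221.2 and 0.33 ± 0.23 (SE), and PAX9, a gene of teeth and pharyngeal pouches, with 196.1 and 0.16 ± 0.24 (SE) per the authors' deposited table. The lowest was that of DLX6, a gene of forebrain and jaw, with a mean count of 37.4 in the authors' deposited table. Per kilobase of peak the 18 had a median of 181 mean counts, and all start peaks 192. Their fold changes were small. From the authors' deposited table, 12 of the 18 were positive, their median was 0.17, and that of all start peaks was 0.039. The 95% Wald interval of the fold change, 1.96 SE to either side, stayed within 1 log2 unit of 0 for 16 of the 18 peaks; DLX2 (upper bound 1.11) and GBX2 (upper bound 1.14) were the exceptions. A difference of 2-fold or more was thus outside the interval at 16 accessible starts, while smaller differences were not resolved.

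**Figure D1:**
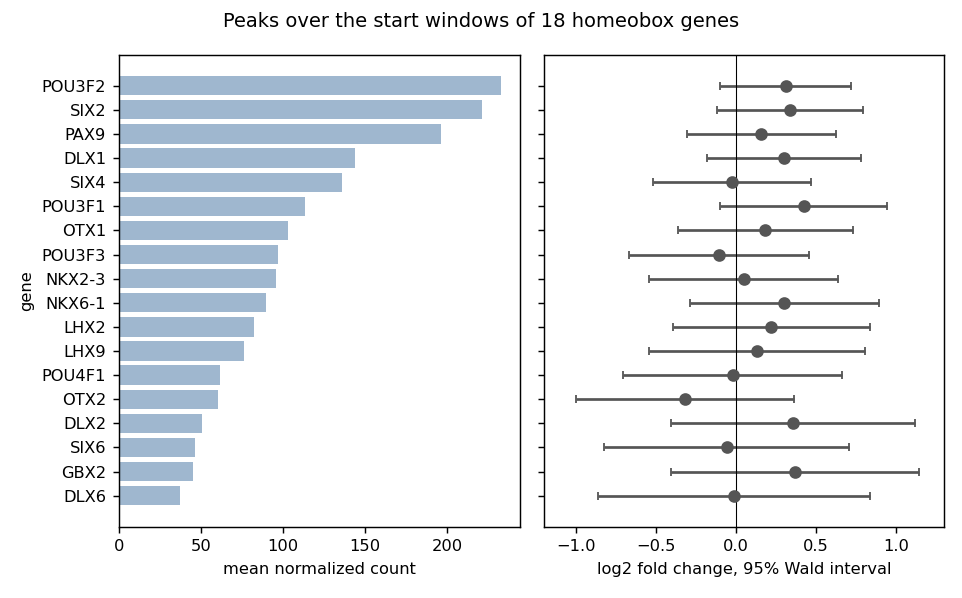
Peaks over the start windows of 18 homeobox genes, with the authors' mean normalized count (left, bars from 0) and the log2 fold change with its 95% Wald interval (right, points and bars; negative is the Up side). Mean counts run from 37.4 at DLX6 to 232.6 at POU3F2, and every interval includes 0.

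Most of the open regions lay away from the start windows. Of the 171 peaks, 67 overlapped the body of their gene, 30 lay within 10 kb of it and 74 lay farther out, up to 100 kb. Gene bodies were overlapped at 37 genes, and 8 genes had peaks outside the body only. These were EMX2, EN1, EN2, LHX3, NKX2-1, NKX2-2, SIX3 and BARX1. The number of peaks per gene ran from 0 to 10 with a median of 3. LMX1B, a regulator of limb and midbrain, had 10. LHX2, a gene of eye and cortex, and LMX1A, a gene of the roof plate and of dopamine neurons, had 9 each, and LHX1 and PAX5 had 8 each. A single peak stood at DLX3, EMX1, LHX3, LHX5, LHX6, NKX2-2, OTX1, POU3F2 and SIX6. These genes lie in wide neighbourhoods: the stretch nearest to each gene and within 100 kb had a median of 115 kb, against 57.0 kb for all protein-coding genes. Per megabase of such stretch there were 31.8 peaks at the homeobox genes and 26.3 at all protein-coding genes. The 46 genes were chosen with earlier results known, so that nearly all of them carry a peak is no finding.

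**Figure D2:**
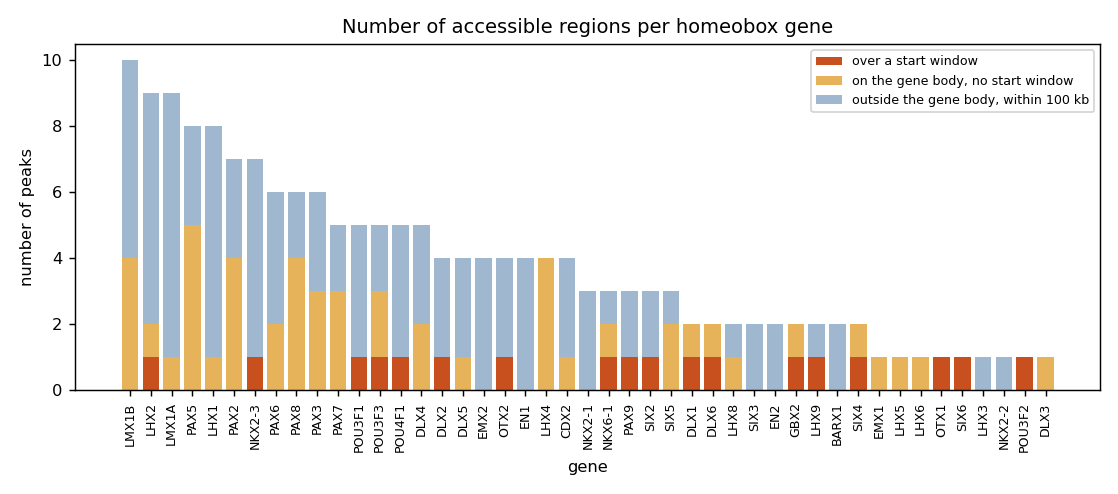
Number of peaks assigned to each of 45 homeobox genes (vertical axis), stacked by position: over a start window, on the gene body without a start window, or outside the body within 100 kb. LMX1B has 10 peaks and none over its start, while the single peaks of POU3F2, OTX1 and SIX6 lie over the start.

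The peaks resembled the rest of the table in size and in precision. The authors' deposited table gives mean counts from 18.5 to 407.4 for the 171 peaks, with a median of 48.0, against 47.8 over all peaks. The highest, 407.4 and 309.2, belonged to a pair of peaks labelled SIX5 in the authors' deposited table. By RefSeq the first of these peaks lies inside the body of the neighbouring gene DMPK, which encodes a muscle kinase, and the other overlaps both genes. Their log2 fold changes were 0.03 ± 0.18 and 0.12 ± 0.19 (SE) per the authors' deposited table, the narrowest of all 171. The median SE was 0.395 log2 units for the homeobox peaks and for all peaks. At that SE a peak passed from about 1.17 log2 units upwards, since the smallest absolute Wald score that passed was 2.97. Smaller differences at a typical homeobox peak were therefore not detectable here.

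Few of the homeobox peaks differed between the groups. Of the 171 peaks, 5 passed, or 2.92%: 3 on the Up side, 2 on the Down side. The share of all peaks that passed in the authors' deposited table was 6.0%, made up of 2.36% for the Up side and 3.64% for the Down side. Among peaks within 100 kb of a protein-coding gene the share was 5.41%. Outside the start windows, 2 of 50 homeobox pairs of gene and peak inside gene bodies passed (4.0%, background 6.39%). Beyond gene bodies, 3 of 103 passed (2.91%, background 6.66%). For the 11 genes without a start window, peaks over the start are counted in these classes. The homeobox share was thus not above the background on either side. By unadjusted p the authors' deposited table puts 20 of the 171 peaks (11.7%) below 0.05, against 16.4% of all peaks. The authors' deposited table also carries a marking of its own, given where the unadjusted p is below 0.05 and the groups differ by 1 log2 unit or more. It takes in 3 Up peaks of the 171 (4.86% of all peaks are so marked) and 4 Down peaks (4.98% of all), together 4.09% against 9.84%. Beyond the 5, it marks a CDX2 and a POU3F3 peak. The median log2 fold change was -0.008, with 84 positive and 87 negative values in the authors' deposited table, and over all peaks it was 0.001. The 5 peaks stood at 3 genes, PAX5, NKX2-3 and BARX1. At 42 further genes with peaks, none passed. No peak that carries a homeobox gene's own symbol was among the 5. Of 24 such peaks at 20 genes, the authors' deposited table puts 0 below the threshold and 1 below an unadjusted p of 0.05. Of these 24, 10 (41.7%) lay over a start window, and only 0.826% of all start peaks passed. The share among all peaks with a symbol is not given, so the 0 is no result about these genes.

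**Figure D3:**
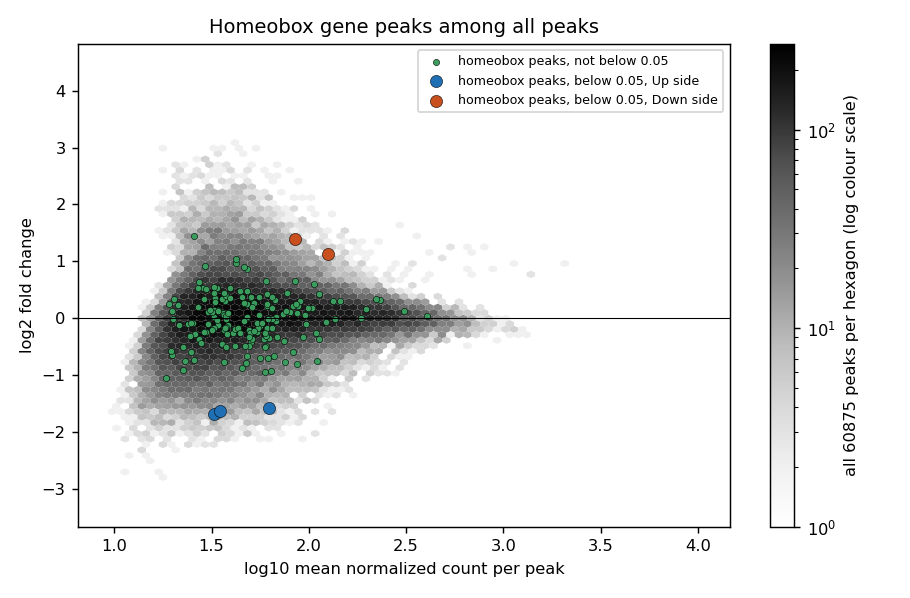
Log2 fold change against the log10 of the mean normalized count for all 60875 peaks (grey hexagons, darker where more peaks lie) and for the 171 homeobox peaks (coloured points). Of the homeobox peaks 5 are marked as below an adjusted p of 0.05 (Up side 3, Down side 2), and the rest lie within the cloud of all peaks.

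PAX5, which sets B cell identity and acts at the boundary of midbrain and hindbrain, held 3 of the 5 changed peaks, in both directions. A pair of neighbouring peaks inside the gene changed on the Up side, and a peak past its 3′ end on the Down side. The peak chr9:36867993-36868416 inside the gene has, by the authors' deposited table, a value of -1.59 ± 0.38 (SE, a 3.005-fold difference, adjusted p = 0.00153) with a mean count of 62.3. The peak chr9:36892285-36892696, also inside the gene body, stood at -1.64 ± 0.48 (SE, 3.12-fold, adjusted p = 0.0154) with a mean count of 34.9 in the authors' deposited table. The peak chr9:36818748-36819469, which is 13800 bp past the gene body, stood at 1.39 ± 0.31 (SE, 2.62-fold, adjusted p = 0.0005) with a mean count of 85.3 in the authors' deposited table. The other 5 PAX5 peaks did not pass and ran from -0.26 to 0.47 log2 units by the authors' deposited table. They include the most accessible one, chr9:37027451-37028035, inside the gene near its start, with a mean count of 184.7 and -0.01 ± 0.24 (SE) per the authors' deposited table. The interval of that peak excludes a difference of 2-fold. The changed peaks thus lay in the 3′ part of the locus, and no peak lay over the start window of PAX5 printed above. Only 1 of the 3 carries a label in the authors' deposited table, and it is that of the microRNA gene MIR4540.

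Each of the 3 changed PAX5 peaks had an annotated microRNA gene within 4070 bp. MicroRNA genes near the unchanged PAX5 peaks, or near peaks in general, were not looked for. Whether this closeness is particular to the changed peaks was therefore not tested. The mature sequences are printed because the authors' label for this locus names a microRNA; the peaks' own bases are not given here. Capitals mark the seed, bases 2 to 8, and all 3 are on the minus strand, as PAX5 is (RefSeq, GRCh38.p14).
hsa-miR-4475, 4070 bp from the Down side peak, chr9:36823542-36823563: cAAGGGACcaagcauucauuau
hsa-miR-4540, 3685 bp from the Up side peak at -1.59, chr9:36864254-36864274: uUAGUCCUgccuguagguuua
hsa-miR-4476, 766 bp from the Up side peak at -1.64, chr9:36893466-36893487: cAGGAAGGauuuagggacaggc
The 3 seeds differ. The hairpins of miR-4540 and miR-4476 lie inside the PAX5 gene body and that of miR-4475 outside it. None of the hairpins lies under a peak.

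NKX2-3, a gene of gut mesenchyme and spleen and a relative of the cardiac gene NKX2-5, had 1 changed peak of 7. The peak chr10:99519860-99520700 changed on the Down side: the authors' deposited table puts it at 1.12 ± 0.27 (SE, 2.18-fold, adjusted p = 0.00212), with a mean count of 126.1. It lies 12242 bp upstream of the gene body and is 840 bp wide, the second widest of the 171 peaks. The peak over the NKX2-3 start, in the window printed above, stood at 0.05 ± 0.30 (SE, adjusted p = 0.977) with a mean count of 95.99 in the authors' deposited table. The other 5 peaks had values from -0.74 to -0.35 log2 units and adjusted p from 0.548 to 0.755 in the authors' deposited table. BARX1, a regulator of stomach mesenchyme and teeth, had a single changed peak, 57269 bp from its body. The peak chr9:93893949-93894358 stood at -1.69 ± 0.51 (SE, 3.23-fold, adjusted p = 0.023) with a mean count of 32.7 in the authors' deposited table. For the only other BARX1 peak, at 13101 bp, the value in the authors' deposited table is -0.20 ± 0.44 (SE, adjusted p = 0.915). The nearest annotated gene of any kind to the changed BARX1 peak is the noncoding LOC101928014. The changed peaks of PAX5 and NKX2-3 outside gene bodies likewise have noncoding genes nearest, so these assignments rest on protein-coding genes alone.

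**Figure D4:**
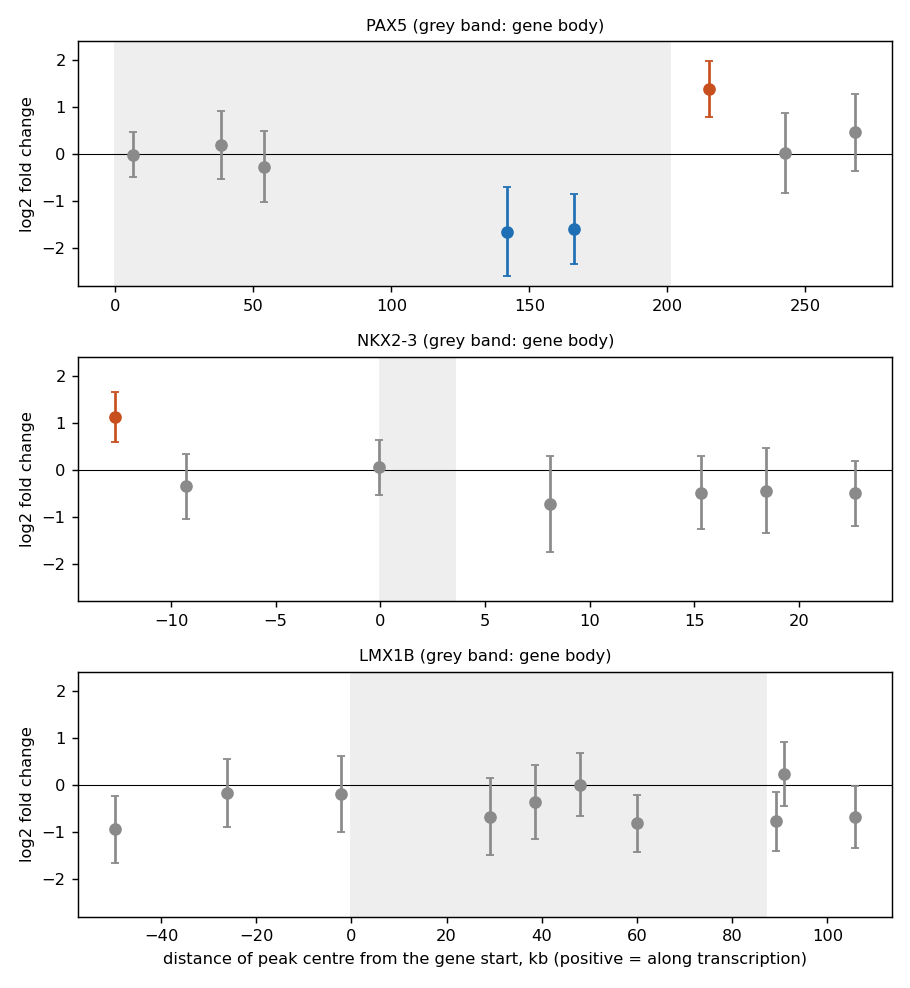
Log2 fold change of each peak with its 95% Wald interval against the distance of the peak's centre from the gene start, in kb along transcription, at PAX5, NKX2-3 and LMX1B (grey band: gene body; blue: adjusted p under 0.05 on the Up side; orange: on the Down side; grey: the rest). At PAX5 the changed peaks at -1.64, -1.59 and 1.39 lie in and past the 3′ part of the gene, and at LMX1B none of 10 peaks passed.

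Among the forebrain and eye genes none of 47 peaks at 16 genes passed, where 6.0% of all peaks did. At that share few of 47 peaks would pass, so this result alone does not set these genes apart. The authors' deposited table gives 6 of the 47 (12.8%) an unadjusted p below 0.05, against 16.4% of the peaks outside the homeobox set. The median log2 fold change of the 47 was -0.058. OTX2, a gene of the anterior brain, had values of -0.76 ± 0.28 and -0.88 ± 0.42 (SE) at a pair of peaks 45339 and 48015 bp from its body (adjusted p = 0.0902 and 0.251) per the authors' deposited table. The authors' deposited table has its start peak at -0.32 ± 0.35 (SE). At PAX6, which acts in eye, brain and pancreas, values ran in both directions, from -0.94 ± 0.35 (SE) inside the gene to 0.97 ± 0.41 (SE) 65067 bp away, in the authors' deposited table. The first of these (adjusted p = 0.096) carries the label of the neighbour RCN1. EMX2, a cortical and urogenital gene, had 4 peaks from -0.60 to -0.10 by the authors' deposited table, all outside the gene. DLX1 and DLX2, a pair needed for forebrain interneurons, both had accessible starts, at 0.30 ± 0.24 and 0.35 ± 0.39 (SE) per the authors' deposited table. At LHX2 the authors' deposited table has 9 values from -0.59 to 0.53, with the start peak at 0.22 ± 0.31 (SE). Both DLX6 peaks lay near 0, at -0.07 and -0.01 by the authors' deposited table. A DLX5 peak at 0.86 ± 0.38 (SE) had an adjusted p of 0.2 in the authors' deposited table. For SIX3, SIX6, LHX5, LHX6, LHX8, EMX1, OTX1 and NKX2-1 every fold change of the authors' deposited table lay between -0.48 and 0.38 log2 units.

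Of the midbrain and hindbrain genes, PAX5 alone had changed peaks (3 of 48 peaks at 8 genes, or 6.25%). That share was close to the 6.0% of all peaks. At LMX1B, 8 of 10 peaks had negative values, the median of the 10 was -0.516, and the authors' deposited table gives 4 an unadjusted p under 0.05. The lowest adjusted p among them was 0.102, for the peak chr9:126673716-126674136 inside the gene (-0.82 ± 0.31, SE) and, after rounding, for chr9:126564032-126564626 (-0.94 ± 0.36, SE) per the authors' deposited table. None of the 10 passed. EN1, EN2 and GBX2 act at the boundary of midbrain and hindbrain, as PAX2 and PAX5 do. In the authors' deposited table the first 3 had positive values at 8 of 8 peaks, from 0.05 to 0.52 with a median of 0.341. The interval of every one of these peaks includes 0. At PAX2, 5 of 7 values were negative, and at PAX5 4 of 8. The 8 of 8 therefore does not describe the boundary genes as a set. Of the peaks outside the homeobox set, 50.1% were positive. PAX2, a kidney and hindbrain gene, ran from -0.80 to 0.52 over 7 peaks, and PAX8, a thyroid and kidney gene, from -0.18 to 0.90 over 6, by the authors' deposited table. None of the 9 LMX1A peaks passed. The rule of 100 kb leaves out a further LMX1A peak, chr1:165092552-165093291, 108576 bp from the gene, at -1.50 ± 0.30 (SE) with a mean count of 106 in the authors' deposited table. Just inside the limit, LHX2 peaks at 91827 and 99609 bp stood at 0.53 and 0.33, and just outside it peaks of POU4F1 (100070 bp) and LHX2 (100448 bp) at -0.13 and -0.03 in the authors' deposited table.

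The spinal cord genes had 46 peaks at 12 genes, of which none passed, where 6.0% of all peaks did. At that share few of 46 peaks would pass. The authors' deposited table gives 2 of the 46 (4.35%) an unadjusted p below 0.05, against 16.4% of the peaks outside the homeobox set. Whether these shares differ was not tested. The median log2 fold change of the 46 was -0.027. PAX3, a gene of neural crest and muscle precursors, had 3 peaks past its 3′ end between -1.05 and -0.77 and 3 inside the gene between 0.19 and 0.53, and the lowest adjusted p of the 6 in the authors' deposited table was 0.405. At LHX1, a gene of kidney and spinal interneurons, the authors' deposited table has 8 values from -0.70 to 0.64, the last with an adjusted p of 0.248. PAX7, a gene of muscle stem cells and dorsal spinal cord, ran from -0.33 to 0.53 over 5 peaks, and LHX4 from -0.28 to 0.38 over 4, by the authors' deposited table. LHX9 had an accessible start at 0.13 and a peak 31574 bp away at -0.65, and LHX3 a single peak at -0.49, by the authors' deposited table. POU3F3, a POU factor of brain and kidney, had a peak at 94651 bp that carries the label LINC01114, with 1.04 ± 0.42 (SE, adjusted p = 0.135) per the authors' deposited table. POU4F1, a sensory neuron gene, had 5 peaks that all lay between -0.33 and -0.02, and POU3F1 had 5 between -0.03 and 0.44, by the authors' deposited table. NKX6-1, a gene of motor neuron progenitors and of beta cells, had an accessible start at 0.30 ± 0.30 (SE) per the authors' deposited table. The single NKX2-2 peak, at 14209 bp, has 0.64 ± 0.50 (SE) per the authors' deposited table.

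Of the genes of gut, skeleton and other organs, NKX2-3 and BARX1 had the 2 changed peaks of 30 (6.67%). That share was close to the 6.0% of all peaks. CDX2, the intestinal regulator, had a peak 16600 bp from its body at 1.45 ± 0.53 (SE, adjusted p = 0.0807) with a mean count of 25.7 in the authors' deposited table. That peak lies between CDX2 and the pancreatic gene PDX1. The other 3 CDX2 peaks ran from -0.17 to 0.22 by the authors' deposited table. SIX2 had peaks at -0.51 and -0.75 away from its start peak at 0.33, by the authors' deposited table. PAX9 had 3 peaks between 0.01 and 0.18, and SIX4 had its start peak at -0.02 ± 0.25 (SE) and another at 0.44 ± 0.35 (SE) per the authors' deposited table. By the authors' deposited table the 3 SIX5 peaks lay between 0.03 and 0.12, and the intervals of all 3 stayed within 1 log2 unit of 0. DLX3 and DLX4, genes of skin, placenta and bone, had 6 peaks from -0.29 to 0.66, and 0.34 was their lowest adjusted p in the authors' deposited table.

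**Figure D5:**
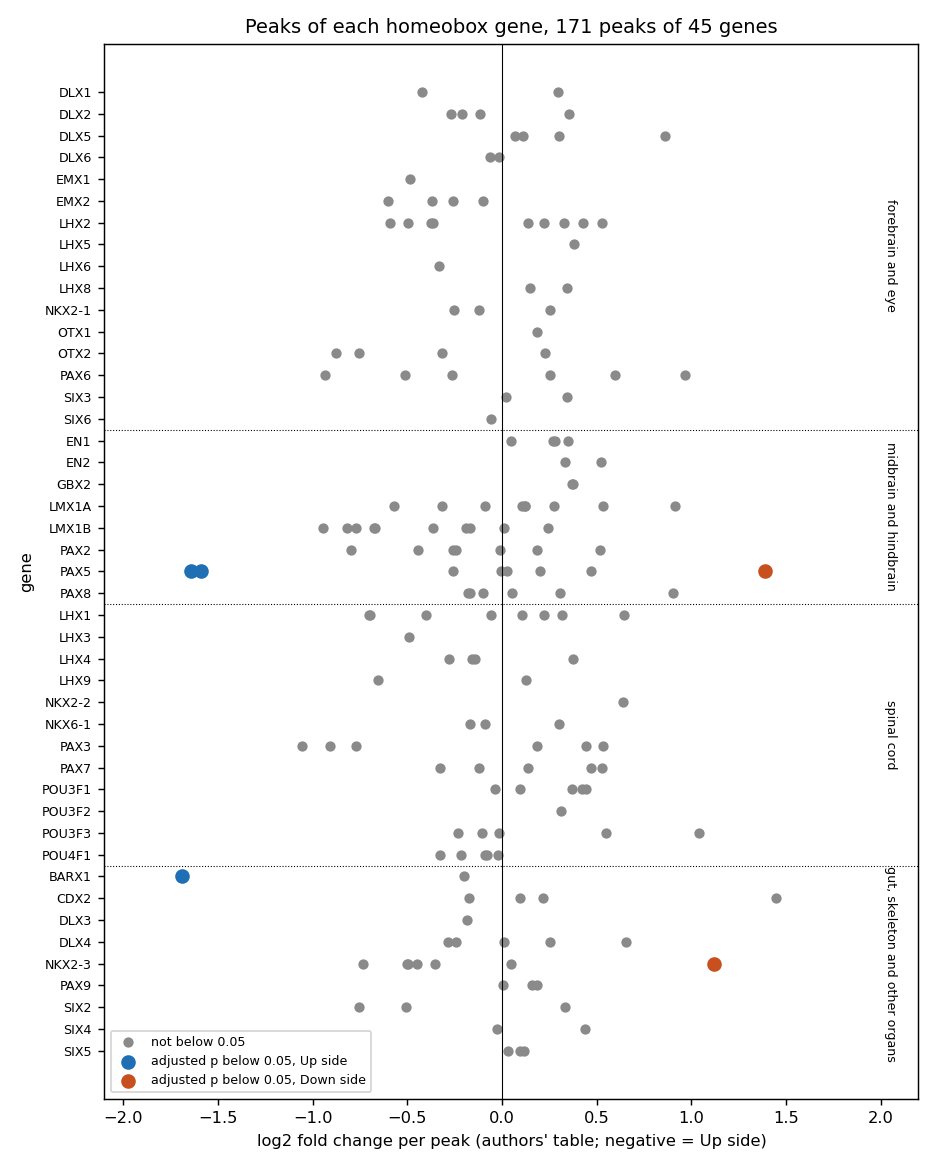
Log2 fold change of each of 171 peaks (points) at 45 homeobox genes, in 4 groups by role (negative is the Up side). The coloured points are the 5 peaks with an adjusted p under 0.05, at PAX5, BARX1 and NKX2-3, and the other genes have grey points only.

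Homeobox genes outside the 46 were assigned peaks in the same way. Of 15 further genes of the same families, 14 had a peak, and 1 of 39 peaks passed (2.56%, against 6.0% of all peaks). It was that of NKX2-6, a relative of NKX2-5, at -0.73 ± 0.24 (SE, adjusted p = 0.0429) per the authors' deposited table. Of 44 other homeobox genes outside the HOX and IRX clusters and the TALE genes, 42 had peaks. Of their 118 peaks 6 passed (5.08%, close to the 6.0% of all peaks), 3 on each side. On the Up side these stood near PITX1 (-1.66 ± 0.27, SE), LBX1 (-1.42 ± 0.41, SE) and the endoderm gene HHEX (-1.21 ± 0.38, SE) per the authors' deposited table. Those on the Down side include peaks near ALX4 (2.33 ± 0.46, SE) and GSX1 (2.17 ± 0.51, SE) per the authors' deposited table. GSX1 lies on chromosome 13 as CDX2 does, whose 16600 bp peak had the highest value of all 171. Whether the share at the 46 genes differs from these was not tested.

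Marker genes of the cell type were checked by the same assignment. All 10 cardiac progenitor markers had a peak, among them ISL1, HAND1, GATA4 and TNNT2, with mean counts of up to 330.8 in the authors' deposited table. A peak stood at 84.2% of all protein-coding genes, and at all 5 endoderm and all 5 endothelial markers too, so that having one does not set the cardiac markers apart. Of the 59 cardiac marker peaks 4 passed (6.78%, against 6.0% of all peaks), those of MYH7, NKX2-5 and GATA4 on the Up side and that of TBX5 on the Down side. Neural ectoderm markers outside the 46 genes also had peaks at 10 of 10 genes, with mean counts of up to 119.5 and a median of 37.9. Of these 34 peaks 1 passed (2.94%, against 6.0% of all peaks). It was that of NES on the Down side, which the authors' deposited table puts at 0.99 ± 0.26 (SE). Per megabase there were 26.3 peaks at the neural markers and at all genes, 41.5 at the cardiac, 41.4 at the endothelial and 56.3 at the endoderm markers. Of the pluripotency markers, 3 of 4 had a peak. The endoderm markers SOX17, FOXA2, HNF4A, HHEX and EPCAM had negative values, the side of the changed BARX1 and inner PAX5 peaks, at 29 of 34 peaks, with a median of -0.817 by the authors' deposited table. Of the 34, 11 passed on the Up side, against 2.36% of all peaks, and 7 of the 11 stood at FOXA2. Of the endothelial markers, 3 of 30 peaks passed on the Down side, where the other PAX5 peak and that of NKX2-3 lie, against 3.64% of all peaks. On the Up side 1 of the 30 passed, against 2.36% of all peaks. The part of either cell type in the homeobox values was not tested, and levels per group were not analysed here.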

How the data were processed

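ATAC-seq libraries (paired-end reads of 42 bp, per the labels' protocols) were compared by the authors. Per the submitters' processing notes the tools were BWA, MACS2 and DESeq2 (no versions) and the builds hg38 and GRCh38. Nothing used here records Tn5 shifting, duplicate removal or peak pooling, and each could change a peak's count. The labels name total RNA as the molecule, at odds with the assay. Per the file headers the deposited table holds a mean normalized count (signal) per peak, a log2 fold change, its SE and Wald score, and p-values with adjusted values. The deposited adjusted p equalled a Benjamini-Hochberg adjustment over 60875 peaks to within 3.4e-06. A refit of counts per library was planned if the values allowed; the deposited adjusted p, below 0.05, was used instead.

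All 46 genes were found in RefSeq, 35 with a start window; of the table's symbols 95.3% matched. Of the 171 peaks, 3 tied between gene bodies and 1 entered by symbol alone. The file does not say if coordinates start at 0 or 1. The naming rule took every changed peak, each gene's highest peak and all symbol-bearing peaks, 62 in all; other peaks given with values were chosen after their values were seen. The lists of other homeobox genes and markers are described in the text by family or cell type, and not all of their genes are named. Members and lists were chosen with earlier results of these data known. Assignment, recentring and adjustment were tested on simulated data. Python 3.11.15, pandas 2.3.3 and scipy 1.17.1 were used. Of the genes outside the 46, a result for 1 gene is not reported here.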

Additional observations from a re-analysis of the deposited data

How the results depend on the processing

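No paired analysis was possible because the values are of the comparison and not of single libraries. For the same reason the planned refit of counts was not run. Nor were counts filtered per library or replicates left out. The counts of changed peaks are small, so single peaks move them. From 3 Up and 2 Down side peaks at 2 genes on each side, an adjusted p under 0.01 left 1 Up side peak at 1 gene, and under 0.1 gave 5 at 4 genes. The authors' marking gave 4 Down side peaks at 4 genes. Leaving out peaks of mean count below the median and adjusting p again left 1 Up side peak at 1 gene. By symbol label alone, 20 genes had a peak and 0 peaks passed on either side (0%; 0 genes each). Within 10 kb, on gene bodies, or with nearest genes of any biotype, 0 Down side peaks at 0 genes passed, and the Up side peaks stood at 1 gene; these follow from fewer peaks being assigned. A limit of 150 kb, chosen after the data were seen, gave 4 and 3 peaks at 3 genes a side, adding LMX1A and DLX2. The median fold change stayed between -0.024 and 0.011 under all settings run. Recentring on the running median of peaks of like mean count kept the counts, and turned the sign of 11 of the 171 peaks, none changed and none beyond 0.12 log2 units as deposited. Among the 62 peaks of the naming rule these were PAX9 (-0.0577), DLX4 (-0.0237), SIX3 (-0.0352) and DLX5 (-0.0049). The share of changed homeobox peaks stayed below that of all peaks under every setting run. Settings that changed the assignment were still set against all peaks, not against peaks assigned in the same way. The settings also reuse the same few changed peaks, so this is a description and no further support.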
